A study of Mus musculus with 18 samples.

Results

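The colons of mice that had drunk dextran sulfate sodium (DSS) and were then given the ZJ316_COM strain of Lactobacillus plantarum were compared with the colons of untreated mice. RNA levels were available as FPKM (fragments scaled for transcript length and library size) for 4 COM libraries and 3 Control libraries, which are 7 of the 18 libraries of the series. Of 18349 genes listed, 12797 reached 1 FPKM in at least 3 of these 7 libraries and were tested. Both groups were male C57BL/6 mice with the genotype label WT. The Control mice, labelled water, were fed normally to the end, and no gavage is described for them. The COM mice drank 2.5% DSS for 7 days and then received the bacterial suspension by gavage at 200 µL per 10 g of body weight for 5 weeks. The remaining 3 groups, of the same sex, strain and genotype label, had the same DSS course: the DSS group, labelled with DSS alone (3 libraries), the ZJ316_WT group (4 libraries) and the ZJ316_KO group (4 libraries). The protocol has 1 colitis arm gavaged with the PBS vehicle, and the labels do not say whether the DSS libraries are that arm.

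The comparison spans DSS, the gavage and the bacteria together, and their shares cannot be told apart in it. The protocol started with 10 untreated and 50 DSS mice; ages are not given, KO and COM are not spelled out in the labels, and libraries carry no animal numbers. The spread that p-values are measured against is therefore that between libraries, which may be technical. Each whole colon was rinsed and snap frozen before RNA extraction and DNBSEQ sequencing. The series is about a bacteriocin of this strain, purine and histidine metabolism and colitis. As background, DSS injures the colonic epithelium and lets luminal bacteria reach the mucosa, where macrophages and other leukocytes gather, vessels and fibroblasts respond, and the epithelium is rebuilt from the crypts. Lactobacillus plantarum is a lactic acid bacterium used as a probiotic, and a bacteriocin is a peptide with which such a bacterium kills competing bacteria.

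Library totals lay between 517933 and 558590 FPKM over all 18 libraries, and the read depth behind them is unknown. Of the 7 libraries 3 stood apart on markers of region or cell type, as the plot of marker lists shows. Control 3 had a mean log2(FPKM + 1) of 1.11 over the distal Hox genes, which mark the hind part of the gut, against 3.03 to 3.69 in the other 6, and Hoxb13 was at 0.76 FPKM there against 173 to 364. The B cell list stood at 0.42 in Control 3 and at 2.20 to 3.15 elsewhere. Its fat cell list at 4.42 was the highest of the 7, but COM 2 was close at 4.30. COM 3 had the keratins of stratified squamous epithelium, with 93.4 FPKM of Krt14 against at most 4.4 in the others. COM 2 carried liver transcripts: the hepatocyte list, added after the data were seen, had a mean of 6.12 against 0.48 to 0.78, and albumin (Alb) was at 655 FPKM against at most 0.93. Counts for the lists with several calls are given with and without Control 3, COM 2 and COM 3. Libraries of the other groups, which enter the spread and the direct tests, also held such transcripts. Amy2a5, of the pancreatic acinar list, was at 9077 FPKM in DSS 1, 1349 in DSS 3 and 3241 in ZJ316_KO 3. Krt5, a squamous keratin, was at 88.1 FPKM in DSS 2, 34.5 in ZJ316_WT 2, 22.3 in ZJ316_WT 4 and 13.7 in ZJ316_KO 3. Albumin was at 51.65 FPKM in DSS 1.

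**Figure D1:**
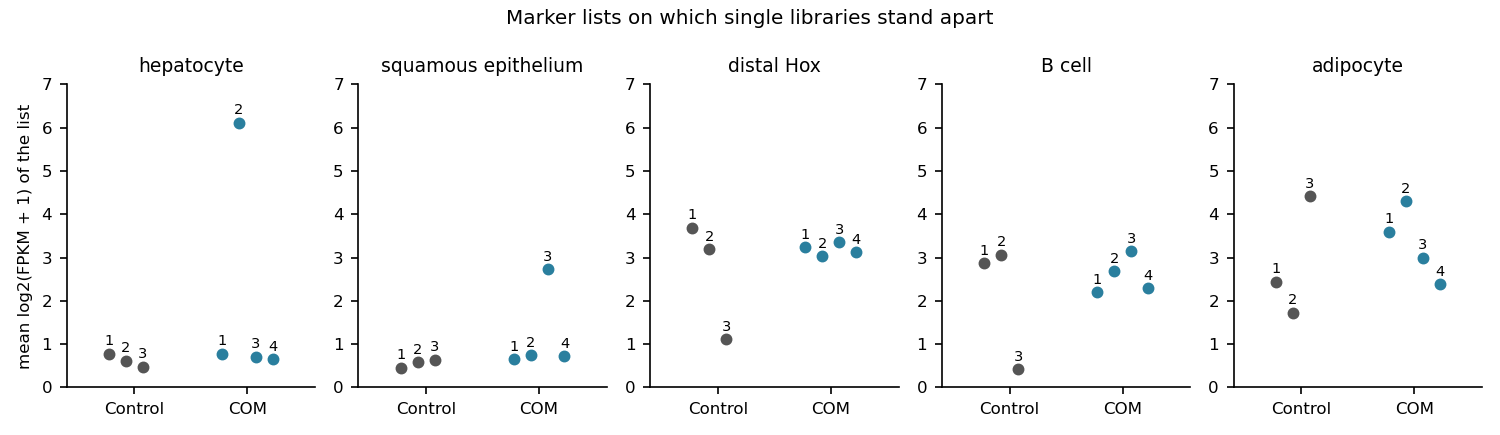
Mean log2(FPKM + 1) of marker lists in each Control and COM library, 1 point a library. Control 3 lies lowest for the distal Hox and B cell lists, COM 3 highest for squamous epithelium at 2.73, and COM 2 highest for the hepatocyte list at 6.12.

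Differences are the COM mean minus the Control mean of log2(FPKM + 1), fitted with limma; calls are genes whose p, adjusted by Benjamini-Hochberg over all 12797, was under 0.05. In all 1021 genes (7.98%) were called, 699 higher in COM (5.46%) and 322 lower (2.52%). The median difference of all tested genes was 0.03. Changes toward higher levels were the larger ones: 86 of the higher genes and 8 of the lower genes differed by at least 1 on the log2 scale. Without regard to the test, all 4 COM libraries lay above all 3 Control libraries for 1366 genes (10.7%) and below them for 769 (6.01%). The called genes that rose had longer transcripts than those that fell, with medians of 3955 and 1700 bases against 3066 for all tested genes. The split between directions moved with the scaling: quantile normalisation gave 436 higher and 478 lower, rescaling to TPM 1146 and 188, and removing a trend in transcript length and GC content from each library 430 and 457. Without Control 3 the counts were 492 and 294, without COM 2 457 and 212, and without COM 3 290 and 139. With Control 3, COM 2 and COM 3 all left out they were 120 and 72. Fitted on the 7 libraries alone, with fewer libraries to estimate the spread, 31 and 2 were called. A core of 301 genes, 224 higher and 77 lower, remained called with each of the 7 libraries left out in turn.

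The circadian clock genes changed in both directions, with 13 of 18 tested members called, 8 higher and 5 lower, against 7.98% of all genes. The molecular clock is a feedback loop. Arntl (BMAL1) and its partners Clock and Npas2 switch on E-box genes, among them the Per and Cry repressors and the Nr1d (REV-ERB) receptors, which in turn hold Arntl down through ROR elements. Dbp, Tef and Hlf are output factors that bind D-boxes, where Nfil3 acts against them. The output factors, both REV-ERB genes, Per1, Per3 and the repressor Ciart were higher in COM, and Arntl, Npas2, Nfil3 and Cry1 were lower. The time of day at which tissue was taken is not given in the sources used here, so collection time and treatment cannot be told apart for these genes.

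To show the elements these factors bind, the 250 bases before the RefSeq gene start (GRCm38.p6) were searched on both strands for the E-box CACGTG, the D-box TTATGNAA and the ROR element ANTNGGTCA, the last of these added after the data were seen. Of 32851 such promoters 6.02% held the E-box, 3.07% the D-box and 1.87% the ROR element. Of the 8 higher clock genes 3 held an E-box and 2 a D-box, and of the 4 lower ones with a promoter entry, an E-box was held by 1 and a ROR element by 1. The promoters with a match are printed 5′ to 3′ along the gene's strand, with the matches in capitals. Ciart (chr3:95882229-95882478, minus strand) has 3 E-boxes, which begin at -116, -58 and -44 from the start. Per1 (chr11:69098699-69098948, plus strand) has an E-box at -166 and a D-box at -24, and Per3 (chr4:151044666-151044915, minus strand) has 2 D-boxes at -205 and -158. Tef has an E-box upstream of each of 2 annotated starts (chr15:81802423-81802672 and chr15:81811164-81811413, plus strand). Cry1 (chr10:85185055-85185304, minus strand) has an E-box at -60, and Nfil3 (chr13:52981040-52981289, minus strand) a ROR element at -12. A match is a description of letters, not a bound site.
Ciart: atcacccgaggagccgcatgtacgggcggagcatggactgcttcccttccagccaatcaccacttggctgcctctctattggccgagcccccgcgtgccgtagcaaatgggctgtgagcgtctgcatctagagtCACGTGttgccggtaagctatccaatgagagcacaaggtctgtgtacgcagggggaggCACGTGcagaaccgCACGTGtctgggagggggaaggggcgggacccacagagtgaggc
Per1: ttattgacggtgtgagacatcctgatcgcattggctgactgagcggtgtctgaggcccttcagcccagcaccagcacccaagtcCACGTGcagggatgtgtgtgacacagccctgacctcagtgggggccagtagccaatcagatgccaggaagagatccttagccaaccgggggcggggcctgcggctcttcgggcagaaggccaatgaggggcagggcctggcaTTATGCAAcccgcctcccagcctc
Per3: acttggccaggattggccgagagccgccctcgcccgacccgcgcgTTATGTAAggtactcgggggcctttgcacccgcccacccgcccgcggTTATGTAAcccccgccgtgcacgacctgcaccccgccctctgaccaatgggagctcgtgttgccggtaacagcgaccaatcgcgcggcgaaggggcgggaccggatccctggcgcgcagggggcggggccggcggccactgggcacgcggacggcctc
Tef, first start: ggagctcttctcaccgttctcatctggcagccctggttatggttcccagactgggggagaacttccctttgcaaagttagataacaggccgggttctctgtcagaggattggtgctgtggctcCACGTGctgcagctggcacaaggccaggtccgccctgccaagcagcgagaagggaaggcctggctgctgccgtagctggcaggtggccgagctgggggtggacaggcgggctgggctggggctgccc
Tef, second start: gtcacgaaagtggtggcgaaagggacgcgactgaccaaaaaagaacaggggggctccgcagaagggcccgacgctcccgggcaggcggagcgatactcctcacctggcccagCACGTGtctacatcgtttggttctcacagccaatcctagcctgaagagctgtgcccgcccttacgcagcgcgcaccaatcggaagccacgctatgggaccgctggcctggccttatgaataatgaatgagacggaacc
Cry1: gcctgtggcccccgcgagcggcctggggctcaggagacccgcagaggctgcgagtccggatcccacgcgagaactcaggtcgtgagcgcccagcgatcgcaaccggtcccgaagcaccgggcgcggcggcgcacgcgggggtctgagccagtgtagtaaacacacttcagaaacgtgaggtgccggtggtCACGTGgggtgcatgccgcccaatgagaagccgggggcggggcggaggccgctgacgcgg
Nfil3: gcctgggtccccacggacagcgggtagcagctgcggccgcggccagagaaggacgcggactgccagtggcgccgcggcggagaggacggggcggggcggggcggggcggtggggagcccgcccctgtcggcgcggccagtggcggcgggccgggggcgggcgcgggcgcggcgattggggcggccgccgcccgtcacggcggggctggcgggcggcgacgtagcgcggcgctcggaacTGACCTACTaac

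Dbp, on chromosome 7 at 45705100 to 45710203 (GRCm38.p6), had 1.01, 1.48 and 1.43 FPKM in the 3 Control libraries and 19.2, 24.3, 20.2 and 14.6 FPKM in the 4 COM libraries (log2 difference 3.14 ± 0.30 SE, adjusted p = 0.000217). Every COM library was far above every Control library. Its family member Tef stood at 3.58, 5.66 and 4.74 FPKM in Control and 19.3, 21.5, 19.7 and 16.9 FPKM in COM (log2 difference 1.86 ± 0.24 SE, adjusted p = 0.00112). Again the groups lay far apart, with little spread inside either. The third of the family, Hlf, was scarce, at 0.69, 0.76 and 0.76 FPKM in Control against 1.73, 2.13, 1.53 and 1.29 FPKM in COM (log2 difference 0.61 ± 0.12 SE, adjusted p = 0.00958). All 3 output factors were higher in each COM library than in any Control library.

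Nr1d1, the receptor REV-ERB alpha, had 4.48, 14.1 and 16.5 FPKM in Control and 63.3, 64.4, 80.04 and 76.2 FPKM in COM (log2 difference 2.66 ± 0.33 SE, adjusted p = 0.00105). Nr1d2, REV-ERB beta, had 3.26, 7.31 and 9.29 FPKM in Control and 25.5, 23.9, 23.1 and 23.7 FPKM in COM (log2 difference 1.81 ± 0.24 SE, adjusted p = 0.00143). Control 1 was the lowest library for both receptors, and the groups did not overlap. Arntl, which these receptors repress, stood at 42.3, 39.02 and 23.3 FPKM in Control and 15.7, 13.5, 19.6 and 18.2 FPKM in COM (log2 difference -0.98 ± 0.15 SE, adjusted p = 0.003). Its partner Npas2 went the same way, with 27.2, 24.1 and 18.6 FPKM in Control against 11.7, 10.1, 15.1 and 12.96 FPKM in COM (log2 difference -0.85 ± 0.15 SE, adjusted p = 0.00568). For both, Control 3 was the lowest Control library and still above the highest COM library. Cry1, whose E-box is printed above, had the firmest fall of the list, from 21.6, 23.7 and 17.8 FPKM to 5.15, 6.34, 4.86 and 4.68 FPKM (log2 difference -1.81 ± 0.19 SE, adjusted p = 0.000434). Nfil3, with the ROR element at its start, had 4.58, 7.15 and 10.8 FPKM in Control and 2.86, 3.95, 2.23 and 2.57 FPKM in COM (log2 difference -1.08 ± 0.27 SE, adjusted p = 0.0241), and its adjusted p was 0.0913 without Control 3 and 0.0703 without COM 3.

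The remaining repressor genes that were called, named after their values were seen, were higher. Per3 had 3.7, 2.7 and 1.43 FPKM in Control and 6.8, 5.83, 6.04 and 6.72 FPKM in COM (log2 difference 1.07 ± 0.21 SE, adjusted p = 0.00854). Per1 had 4.99, 6.09 and 5.73 FPKM in Control and 9.62, 9.34, 9.4 and 8.07 FPKM in COM (log2 difference 0.61 ± 0.15 SE, adjusted p = 0.0211), and without COM 3 its adjusted p was 0.0551. Ciart, with its 3 E-boxes, had 0.83, 1.31 and 0.52 FPKM in Control and 1.81, 4.3, 2.02 and 1.93 FPKM in COM (log2 difference 0.87 ± 0.23 SE, adjusted p = 0.0303). COM 2 alone was at 4.3, the other COM libraries were close to the highest Control library, and the adjusted p was 0.0645 without COM 2. Another 5 members missed the threshold: Bhlhe40 (0.24 ± 0.13), Rora (0.13 ± 0.08), Clock (0.13 ± 0.12), Cry2 (0.09 ± 0.13) and Per2 (-0.03 ± 0.21), all log2 differences with their SE. The 8 and 5 calls were the same counts under quantile normalisation, TPM and the length and GC correction. They were 7 and 4 without Control 3, 7 and 5 without COM 2, 6 and 4 without COM 3, and 4 and 4 without all 3 of these libraries.

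Dbp and Tef were also the genes by which COM stood apart from DSS alone. Mean Dbp was 1.31 ± 0.258 FPKM in Control (SD, n = 3), 1.92 ± 1.01 in DSS (n = 3), 4.17 ± 2.44 in ZJ316_WT (n = 4), 14.4 ± 4.03 in ZJ316_KO (n = 4) and 19.6 ± 3.98 in COM (n = 4). In direct tests COM exceeded DSS by 2.85 ± 0.30 on the log2 scale (limma, adjusted p = 0.000808) and ZJ316_WT by 2.08 ± 0.28 (limma, adjusted p = 0.018). Against ZJ316_KO the difference was 0.43 ± 0.28 (limma, adjusted p = 0.607), which did not pass the threshold. Tef exceeded DSS by 1.6 ± 0.24 (limma, adjusted p = 0.0365) and missed the threshold against ZJ316_WT (limma, adjusted p = 0.126). These 2 genes were the whole of the 0.0156% of genes called against DSS, and Dbp alone was called against ZJ316_WT (0.00781%). Against ZJ316_KO 4 genes were called (0.0313%): Banp, Fxr1 and Ints8 were higher in COM (0.0234%) and Zfp414 lower (0.00781%). At an unadjusted p under 0.05 the counts were 1386, 1450 and 1393 genes, so the few calls do not show that these groups were alike. The part of the pancreatic, liver and squamous transcripts of some libraries in these comparisons was not tested.

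**Figure D2:**
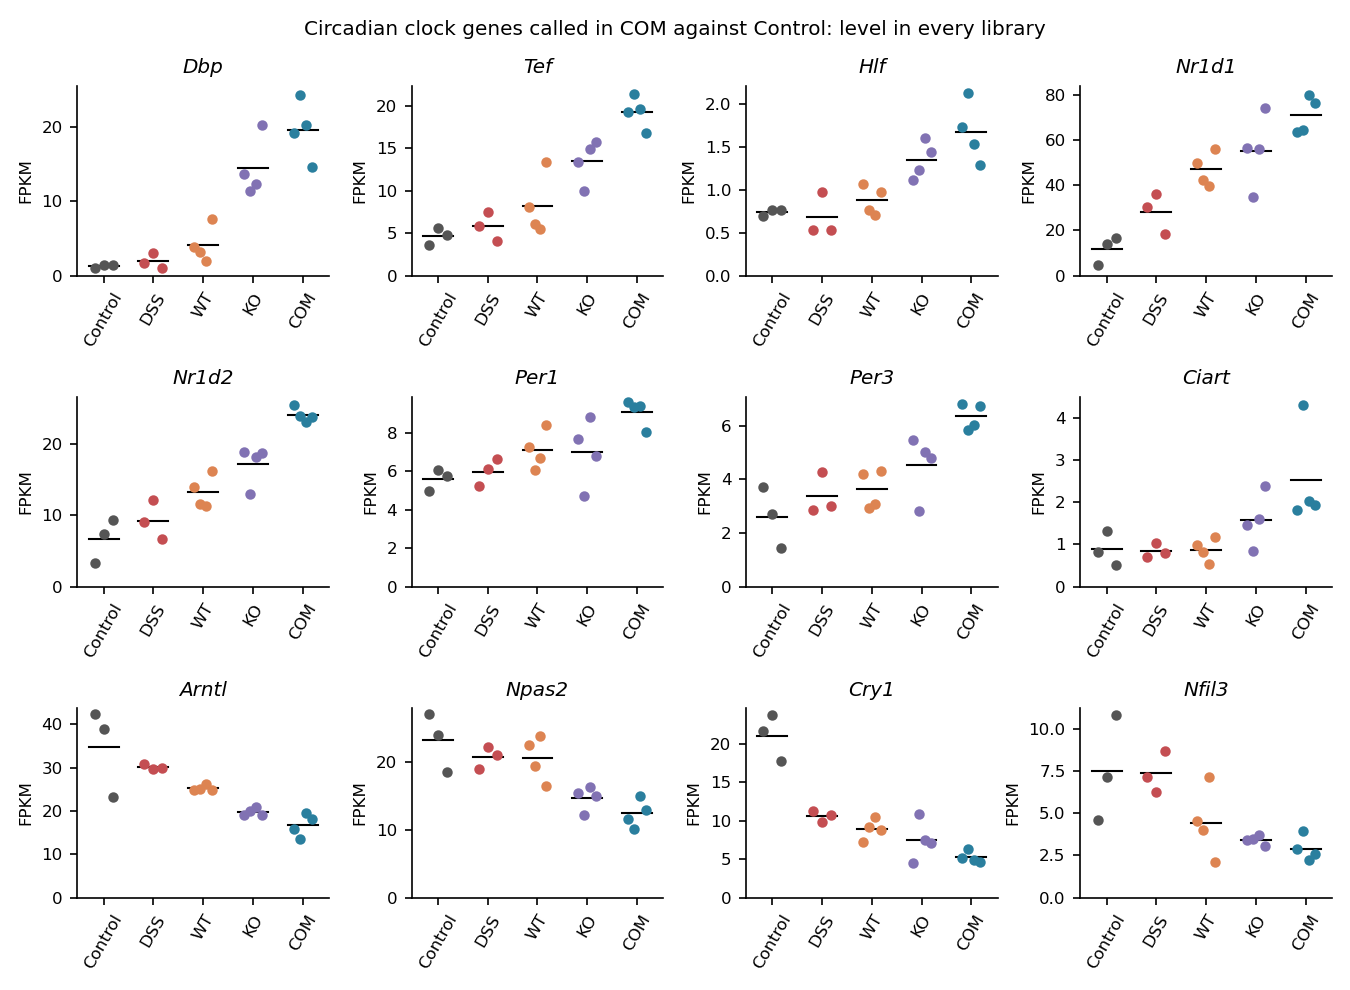
FPKM of 12 called clock genes in each of the 18 libraries by group, 1 point a library, with axes from 0. For Dbp the COM libraries lie between 14.6 and 24.3 FPKM and the Control libraries between 1.01 and 1.48.

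Of the 15 largest differences in each direction among genes with non-overlapping groups and at least 5 FPKM, 16 of 30 remained called with each library left out in turn. Fitted on the 7 libraries alone, 5 of the 30 were called. Clca4b, of a family of secreted calcium-activated chloride channel regulators, led the list: it had 15.6, 2.94 and 3.82 FPKM in Control and 78.4, 252.5, 157 and 169.8 FPKM in COM (log2 difference 4.49 ± 0.58 SE, adjusted p = 0.00112; chromosome 3 at 144910921 to 144932529). Clca3b, its neighbour on chromosome 3 at 144822623 to 144849302, had 93.3, 90.7 and 37.8 FPKM in Control and 159.8, 173, 217 and 262 FPKM in COM (log2 difference 1.53 ± 0.28 SE, adjusted p = 0.00636). No COM library reached down to a Control library for either gene. In the family of 6 tested members 3 were called higher and none lower, against 5.46% and 2.52% of all genes. The family's median difference was 0.78, against 0.03 for all genes. The count was 2 without Control 3, 3 without COM 2, 2 without COM 3 and 1 without all 3. The members are near-identical in parts, so reads may be shared between them. Khdc1a, which has close paralogs and is best known from oocytes and embryos, had 0.64, 0.61 and 0 FPKM in Control and 6.89, 14.8, 32.1 and 23.1 FPKM in COM (log2 difference 3.68 ± 0.43 SE, adjusted p = 0.000859). It was nearly absent from Control and present in all 4 COM libraries.

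Adgrf1, an adhesion G protein-coupled receptor, had 1.5, 1.82 and 0.17 FPKM in Control and 5.49, 6.76, 10.3 and 11.4 FPKM in COM (log2 difference 2.18 ± 0.32 SE, adjusted p = 0.00202). Anxa8, an annexin of stratified and injured epithelia, had 35.2, 42.7 and 3.84 FPKM in Control and 64.2, 90.1, 146 and 125 FPKM in COM (log2 difference 2.38 ± 0.56 SE, adjusted p = 0.0208). Control 3 was far below the other Control libraries for both, and without it the Anxa8 difference was 1.36 (adjusted p = 0.0312). Without COM 3 the adjusted p of Anxa8 was 0.0587. Aldh1a3, which makes retinoic acid, had 4.1, 2.63 and 1.39 FPKM in Control and 6.64, 9.08, 28.9 and 17.6 FPKM in COM (log2 difference 2.02 ± 0.53 SE, adjusted p = 0.0295). COM 3, the library with squamous keratins, held its highest level, and the adjusted p was 0.0876 without that library. Ifitm1, an interferon-inducible membrane protein, had 12.6, 14 and 8.31 FPKM in Control and 19.9, 35.5, 80.3 and 35.6 FPKM in COM (log2 difference 1.65 ± 0.38 SE, adjusted p = 0.0187), again highest in COM 3, and its adjusted p was 0.0573 without Control 3. Glycam1, a mucin-like ligand for lymphocyte homing made by high endothelial venules, had 0.96, 0.99 and 0 FPKM in Control and 2.79, 5.07, 9.13 and 3.44 FPKM in COM (log2 difference 1.85 ± 0.53 SE, adjusted p = 0.0431). Its call was lost without COM 3 (adjusted p = 0.117). Myl7, the atrial myosin light chain, had 0.15, 0.31 and 3.84 FPKM in Control and 4.6, 7.71, 8.38 and 10.1 FPKM in COM (log2 difference 2.12 ± 0.50 SE, adjusted p = 0.0208), with Control 3 close to the lowest COM library and an adjusted p of 0.0549 without COM 3. Inmt, a methyltransferase abundant in liver and lung, had 1.33, 0.77 and 0.16 FPKM in Control and 4.87, 21.1, 3.86 and 3.18 FPKM in COM (log2 difference 2.09 ± 0.53 SE, adjusted p = 0.0267). Without COM 2, where it was highest and where liver transcripts lay, the difference was 1.55 (adjusted p = 0.0515).

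Among the lower genes, Hsd17b2, which inactivates estradiol and testosterone, had 113, 164 and 157 FPKM in Control and 95.5, 77.2, 90.2 and 92.7 FPKM in COM (log2 difference -0.68 ± 0.11 SE, adjusted p = 0.00377). Oat, ornithine aminotransferase of the mitochondrion, had 93.1, 108 and 117.5 FPKM in Control and 74.1, 78.8, 56.1 and 58.9 FPKM in COM (log2 difference -0.66 ± 0.11 SE, adjusted p = 0.00377). Iyd, which removes iodine from iodotyrosines, had 11.2, 9.99 and 7.5 FPKM in Control and 3.9, 4.08, 5.86 and 4.78 FPKM in COM (log2 difference -0.90 ± 0.14 SE, adjusted p = 0.00325). All 3 remained called with each library left out, as did Cdkn2b, the cell cycle inhibitor p15, with 29.7, 37.3 and 40.9 FPKM in Control and 22.2, 18.99, 20.99 and 21.4 FPKM in COM (log2 difference -0.74 ± 0.11 SE, adjusted p = 0.003). Tm6sf2, a lipid export protein of gut and liver, had 14.7, 20.5 and 11.1 FPKM in Control and 8.79, 7.23, 9.06 and 9.88 FPKM in COM (log2 difference -0.72 ± 0.17 SE, adjusted p = 0.0216). Efna1, an ephrin ligand of epithelium, had 84.3, 133 and 105 FPKM in Control and 68.2, 62.4, 79.5 and 57.2 FPKM in COM (log2 difference -0.66 ± 0.18 SE, adjusted p = 0.0311). Neither kept its call without COM 2 (adjusted p = 0.0541 and 0.0667). Odf3b had 6.86, 7.95 and 5.76 FPKM in Control and 2.16, 2.2, 3.65 and 2.91 FPKM in COM (log2 difference -1.08 ± 0.23 SE, adjusted p = 0.0132). Its highest COM library was well below the lowest Control library, but the call did not hold with every library left out in turn.

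**Figure D3:**
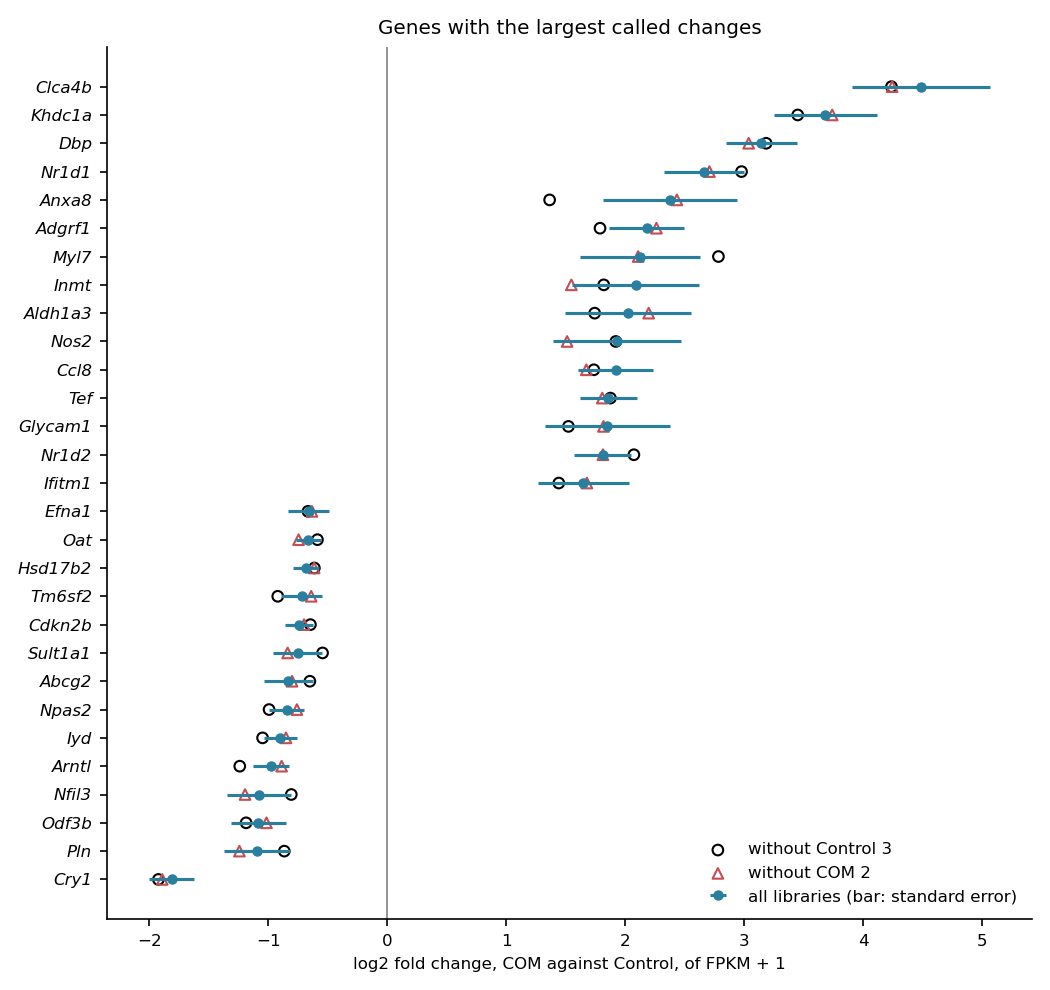
Log2 difference between COM and Control for 29 of the 30 largest called changes (filled points, bars are 1 standard error), without Control 3 (open circles) and without COM 2 (open triangles). Each of the 29 genes shown keeps its side of 0 in both, from Clca4b at 4.49 to Cry1 at -1.81.

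Genes of the acute phase and of nitric oxide synthesis were higher in COM. Of 16 tested members 7 were called higher and none lower (5.46% of all genes were called higher), and the list's median difference was 1.23. Nos2, the inducible nitric oxide synthase, had 1.44, 3.85 and 2.37 FPKM in Control and 8.43, 30.1, 9.9 and 7.98 FPKM in COM (log2 difference 1.93 ± 0.54 SE, adjusted p = 0.0405). COM 2 was far above the other 3, which were still above all Control libraries, and without COM 2 the difference was 1.51 (adjusted p = 0.0905). Steap4, a metalloreductase of inflamed tissue, had 2.19, 3.66 and 3.41 FPKM in Control and 9.08, 11.3, 11.2 and 13.7 FPKM in COM (log2 difference 1.6 ± 0.29 SE, adjusted p = 0.0057). Serpina3n, a protease inhibitor, had 8.32, 8.1 and 3.89 FPKM in Control and 13.6, 23.9, 28.9 and 18.1 FPKM in COM (log2 difference 1.52 ± 0.27 SE, adjusted p = 0.00568). In both genes the groups were apart and no single library carried the difference. Lcn2, which withholds iron from bacteria, had 0.65, 1.73 and 1.48 FPKM in Control and 2.91, 3.97, 7.91 and 3.42 FPKM in COM (log2 difference 1.23 ± 0.30 SE, adjusted p = 0.0219), highest in COM 3 and with an adjusted p of 0.0587 without it. Cp, ceruloplasmin, had 1.84, 1.85 and 1.59 FPKM in Control and 3.26, 11.2, 5.48 and 4.06 FPKM in COM (log2 difference 1.22 ± 0.24 SE, adjusted p = 0.00971), highest in COM 2, the library with liver transcripts. Slpi, a protease inhibitor of mucosal secretions, had 16.8, 7.14 and 1.9 FPKM in Control and 15.4, 36.9, 27.7 and 24.2 FPKM in COM (log2 difference 1.79 ± 0.48 SE, adjusted p = 0.0333), and here the groups overlapped; without Control 3 the difference was 1.10 (adjusted p = 0.119). The list's count was 5 higher and 2 lower without Control 3, where Saa1 and Saa2 were the lower ones, 4 higher without COM 2, 3 higher without COM 3, and 2 higher and 1 lower without all 3.

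Of 16 tested chemokines 6 were called higher, against 5.46% of all genes, with a list median of 0.87 and 14 members above 0. The count was 5 higher without Control 3, 5 higher and 1 lower without COM 2, 4 higher without COM 3, and 1 higher without all 3, where the median was 0.02. Ccl8, a monocyte attractant, had 6.13, 5.19 and 3.55 FPKM in Control and 10.6, 35.9, 25.2 and 20.3 FPKM in COM (log2 difference 1.92 ± 0.32 SE, adjusted p = 0.00377). Ccl11, eotaxin, had 1.4, 3.05 and 3.05 FPKM in Control and 7.49, 7.73, 7.23 and 5.94 FPKM in COM (log2 difference 1.25 ± 0.18 SE, adjusted p = 0.00202). Ccl21a, which lymphatic vessels make to guide dendritic and T cells, had 55.1, 76.2 and 38.8 FPKM in Control and 118, 166, 193 and 161 FPKM in COM (log2 difference 1.51 ± 0.26 SE, adjusted p = 0.00453), and it has near-identical copies that can share its reads. For these 3 each COM library exceeded each Control library. Cxcl12, made by stromal cells, had 16.8, 15.6 and 10.8 FPKM in Control and 25.5, 29.7, 30.9 and 32.5 FPKM in COM (log2 difference 1.01 ± 0.18 SE, adjusted p = 0.0057). Ccl2 had 0.5, 0.62 and 0.42 FPKM in Control and 1.71, 3.08, 2.9 and 1.49 FPKM in COM (log2 difference 1.09 ± 0.27 SE, adjusted p = 0.0239), and its call was lost without Control 3 (adjusted p = 0.0606). Among 6 cytokines only Il1b was called, against 7.98% of all genes. Il1b had 0.86, 2.19 and 0.52 FPKM in Control and 2.81, 6.93, 5.7 and 3.97 FPKM in COM (log2 difference 1.44 ± 0.33 SE, adjusted p = 0.018). Without Control 3 its adjusted p was 0.0579.

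Macrophage markers were higher for 9 of 13 tested members, against 5.46% of all genes, with a median of 0.91. Mpeg1, the pore-forming protein perforin-2, had 10.5, 9.42 and 3.96 FPKM in Control and 15.97, 22.4, 22.1 and 19.8 FPKM in COM (log2 difference 1.31 ± 0.25 SE, adjusted p = 0.00801). Ms4a7 had 5.21, 3.09 and 2.49 FPKM in Control and 6.73, 9.71, 8.89 and 9.23 FPKM in COM (log2 difference 1.10 ± 0.20 SE, adjusted p = 0.00629). C1qb, a chain of the first complement component that resident macrophages make, had 40.4, 31.1 and 11.97 FPKM in Control and 44.6, 60.4, 63.6 and 58.7 FPKM in COM (log2 difference 1.15 ± 0.30 SE, adjusted p = 0.0274). Control 3 was the lowest library for all 3, and COM 1 was close to the highest Control library for C1qb. Without Control 3 only 2 of the 13 were called and the median was 0.55, 3 were called without COM 2, 2 without COM 3 and 0 without all 3. The part of the Hox and B cell differences of Control 3 in this was not tested. In these whole-colon libraries, more cells of a type and more RNA per cell cannot be told apart. T and NK cell genes had 3 of 12 called higher, against 5.46% of all genes. None was called without Control 3, without COM 2 or without COM 3. Cd4 was among the 3, with 2.93, 2.91 and 0.76 FPKM in Control and 4, 5.96, 6.13 and 5.23 FPKM in COM (log2 difference 1.06 ± 0.29 SE, adjusted p = 0.0377). No member of the B cell, plasma cell, neutrophil or MHC class II lists was called by limma, and 0 of 11, 4 of 8, 3 of 4 and 1 of 7 had an unadjusted p under 0.05. Over all 12797 tested genes 3159 had one. The neutrophil gene S100a8 was listed at 0 in each Control library and had 3.22, 1.15, 6.09 and 1.43 FPKM in COM (limma, adjusted p = 0.0558).

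Vessel genes were higher in COM. Of 12 endothelial markers 10 were called higher, against 5.46% of all genes, and all 12 had every COM library above every Control library, against 10.7%; the list median was 0.60. Cdh5, the cadherin of endothelial junctions, had 3.12, 2.61 and 2.29 FPKM in Control and 4.76, 6.02, 6.48 and 6.28 FPKM in COM (log2 difference 0.91 ± 0.13 SE, adjusted p = 0.00196). Pecam1, a further junction protein, had 9.61, 10.8 and 7.52 FPKM in Control and 16.1, 16.7, 19.8 and 19.7 FPKM in COM (log2 difference 0.90 ± 0.12 SE, adjusted p = 0.00196). Tek, the receptor for angiopoietins, had 1.08, 1.33 and 1.02 FPKM in Control and 2.08, 2.29, 2.44 and 2.74 FPKM in COM (log2 difference 0.66 ± 0.09 SE, adjusted p = 0.00185). The spread inside each group was small for these 3, and Control 3 was near the other Control libraries. The list had 9 higher calls without Control 3, 10 without COM 2 and 9 without COM 3, with medians between 0.58 and 0.60. With all 3 libraries left out it had 4.

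Lymphatic vessel markers went the same way, with 5 of 6 called higher, against 5.46% of all genes, and a median of 0.78. Mmrn1 had 1.92, 2.9 and 4.03 FPKM in Control and 7.62, 7.56, 8.53 and 7.1 FPKM in COM (log2 difference 1.17 ± 0.18 SE, adjusted p = 0.00326). Pdpn, podoplanin, had 4.46, 5.11 and 3.91 FPKM in Control and 8.55, 9.63, 9.42 and 10.3 FPKM in COM (log2 difference 0.93 ± 0.15 SE, adjusted p = 0.00325). Lyve1, a hyaluronan receptor that some macrophages also carry, had 6.08, 6.58 and 7.19 FPKM in Control and 11.8, 11.8, 14.3 and 14.2 FPKM in COM (log2 difference 0.88 ± 0.14 SE, adjusted p = 0.00377). Flt4 and Reln were called too, and Prox1, the defining transcription factor, missed the threshold at 0.29 ± 0.14. The count was 6 without Control 3, 5 without COM 2, 4 without COM 3 and 2 without all 3. Both lists in the other DSS groups, whose comparisons share the Control libraries, are given side by side. The mean log2(FPKM + 1) of the endothelial list ranged from 2.06 to 2.19 in Control, 2.62 to 2.86 in COM, 2.91 to 3.07 in DSS, 2.78 to 2.96 in ZJ316_WT and 2.72 to 3.07 in ZJ316_KO. The lymphatic list ranged from 1.52 to 1.78 in Control, 2.32 to 2.47 in COM, 2.38 to 2.74 in DSS, 2.17 to 2.53 in ZJ316_WT and 2.14 to 2.56 in ZJ316_KO. No member of either list was called between COM and DSS, where 0.0156% of all genes were called, so this does not show that the lists were alike there.

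Of 16 fibroblast and collagen genes 12 were called higher (5.46% of all genes were), with a median of 0.59, and 15 had every COM library above every Control library (10.7% of all genes did). Dcn, the collagen-binding proteoglycan decorin, had 115, 102 and 58.1 FPKM in Control and 217, 219, 264 and 222 FPKM in COM (log2 difference 1.37 ± 0.23 SE, adjusted p = 0.00377). Col1a2, a chain of type I collagen, had 33.2, 31.3 and 17.6 FPKM in Control and 44.2, 41.5, 50.7 and 55.6 FPKM in COM (log2 difference 0.83 ± 0.20 SE, adjusted p = 0.0217). Lum, lumican, had 12.3, 10.99 and 10.4 FPKM in Control and 19.8, 18.1, 23.1 and 20.4 FPKM in COM (log2 difference 0.80 ± 0.15 SE, adjusted p = 0.00823). Control 3 was the lowest library for each, only slightly so for Lum. Without Control 3 the list had 3 calls and a median of 0.45, without COM 2 5 calls, without COM 3 2 calls and without all 3 none. Matrix metalloproteases and their inhibitors had 6 of 11 called higher, against 5.46% of all genes, with a median of 0.75. Their count was 3 without Control 3, 5 without COM 2, 3 without COM 3 and 0 without all 3, where the median was 0.74. Mmp3, stromelysin, had 0.89, 0.72 and 0.41 FPKM in Control and 1.91, 3.27, 4.64 and 3.09 FPKM in COM (log2 difference 1.31 ± 0.23 SE, adjusted p = 0.00565). Mmp10 had 0.16, 0.5 and 0.21 FPKM in Control and 0.94, 2.57, 1.94 and 5.15 FPKM in COM (log2 difference 1.38 ± 0.33 SE, adjusted p = 0.0206), and Mmp2, gelatinase A of fibroblasts, had 9.51, 10.9 and 7.14 FPKM in Control and 15.2, 14.6, 18.99 and 22.6 FPKM in COM (log2 difference 0.89 ± 0.18 SE, adjusted p = 0.00992). In all 3 the COM libraries were above the Control libraries, and Mmp10 was a scarce transcript.

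**Figure D4:**
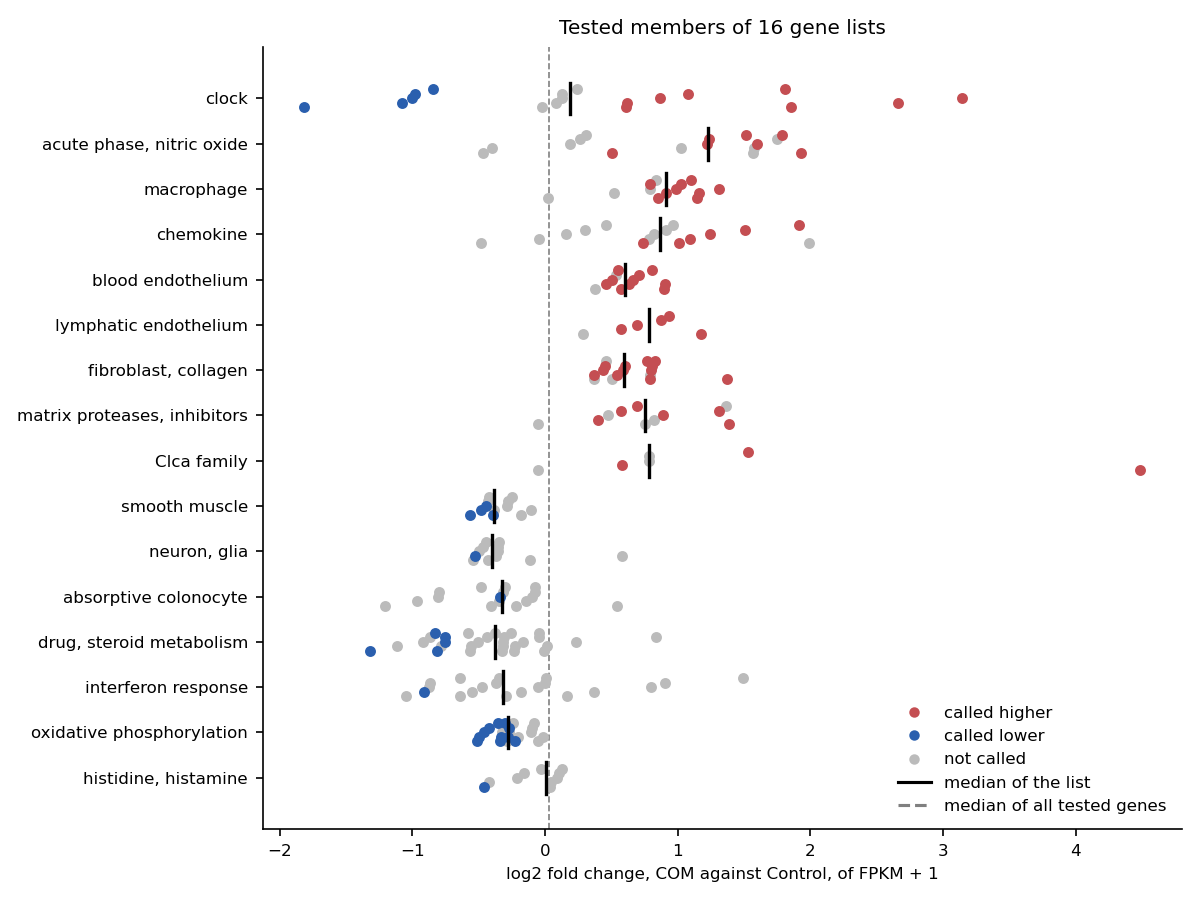
Log2 difference between COM and Control for every tested member of 16 gene lists, 1 point a gene, coloured by whether it was called; the dashed line marks the median of all tested genes, 0.03. The 12 endothelial and 22 oxidative phosphorylation genes lie on opposite sides of the line.

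Of 22 genes of oxidative phosphorylation, the mitochondrial respiratory chain and ATP synthase, 11 were called lower in COM, by small amounts, and none was called higher (2.52% of all genes were called lower), every member was below 0, and the median was -0.28. The members ranged from -0.02 ± 0.08 SE for Ndufs1, a core subunit of complex I that stood at 0.07 without Control 3, to -0.52 ± 0.12 SE for Uqcrq. Atp5o, a stalk subunit of ATP synthase, had 432, 470.2 and 445 FPKM in Control and 348, 351, 342 and 302 FPKM in COM (log2 difference -0.42 ± 0.07 SE, adjusted p = 0.003). Cox6c, of cytochrome c oxidase, had 616, 859.8 and 746.5 FPKM in Control and 509, 513, 555 and 498 FPKM in COM (log2 difference -0.50 ± 0.12 SE, adjusted p = 0.0209). Ndufa1, of complex I, had 123.5, 145 and 109 FPKM in Control and 84.3, 82.1, 103 and 93.7 FPKM in COM (log2 difference -0.46 ± 0.09 SE, adjusted p = 0.0101), and Uqcrq, of complex III, had 87.3, 106 and 102 FPKM in Control and 72.6, 68.9, 63.4 and 69.1 FPKM in COM (log2 difference -0.52 ± 0.12 SE, adjusted p = 0.0182). In all 4 the highest COM library was below the lowest Control library. The list had 8 lower calls without Control 3, 9 without COM 2, 5 without COM 3 and 2 without all 3.

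All subunits with a matching symbol were then counted, a step chosen after these values were seen. Of 79 tested nuclear-encoded subunits of the respiratory chain and ATP synthase 76 were below 0, with a median of -0.31. Calls were 40 lower, against 2.52% of all genes, and none higher. The largest differences were those of Atp5mpl, a small subunit of ATP synthase, with 368, 434 and 424 FPKM in Control and 278, 258, 264 and 286 FPKM in COM (log2 difference -0.59 ± 0.10 SE, adjusted p = 0.00394), and Cox5b of cytochrome c oxidase, with 275, 328 and 303 FPKM in Control and 219, 197, 207 and 207 FPKM in COM (log2 difference -0.54 ± 0.11 SE, adjusted p = 0.00958). These transcripts are short, with a median of 809 bases, and the called lower genes were short as a whole; after the length and GC trend was removed the count was 40 and the median -0.31. It was 35 without Control 3, 32 without COM 2, 23 without COM 3, 30 under quantile normalisation and 33 under TPM. Cytosolic ribosomal proteins, of like length with a median of 914 bases, had 0 of 77 called by limma (2 at an unadjusted p under 0.05; 2 called lower without Control 3) and a median of 0.07. Mitochondrial ribosomal proteins had 13 of 78 called lower, against 2.52% of all genes, with a median of -0.14. That count was 9 without Control 3, 5 without COM 2 and 3 without COM 3. It was 15 under quantile normalisation, 7 under TPM and 11 with the length and GC trend removed. Proteasome subunits had 0 of 37 called by limma (5 at an unadjusted p under 0.05), with a median of -0.01. Over all 12797 tested genes 3159 had an unadjusted p under 0.05. Genes of the mitochondrial genome were not analysed here. Collagen chains had 9 of 22 called higher, against 5.46% of all genes, and a median of 0.45. Their calls dropped to 2 without Control 3, 4 without COM 2 and 2 without COM 3.

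**Figure D5:**
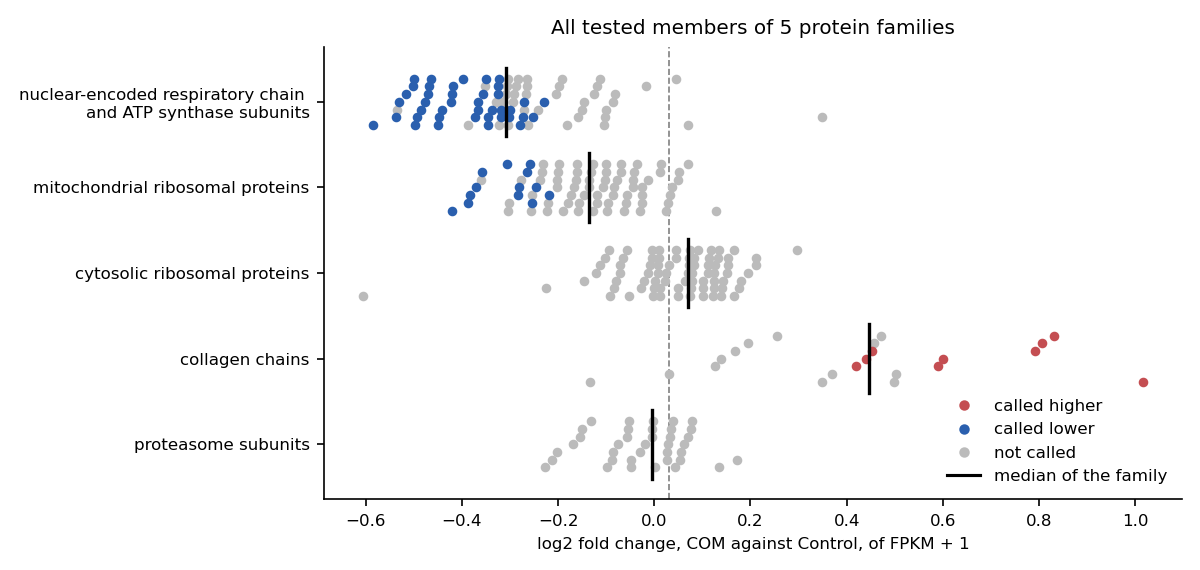
Log2 difference between COM and Control for every tested member of 5 protein families, 1 point a gene, coloured by call; the dashed line marks the median of all tested genes. The respiratory chain and ATP synthase subunits lie around -0.31 and the cytosolic ribosomal proteins around 0.07.

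Contractile genes of smooth muscle were called lower for 4 of 12 tested members, against 2.52% of all genes. All 12 were below 0, and the median was -0.39. Des, the muscle intermediate filament desmin, had 312, 281 and 288 FPKM in Control and 196, 182, 257 and 165 FPKM in COM (log2 difference -0.57 ± 0.14 SE, adjusted p = 0.0209). Mylk, myosin light chain kinase, had 79.9, 81.05 and 105 FPKM in Control and 66.4, 71.6, 63.4 and 51.6 FPKM in COM (log2 difference -0.48 ± 0.13 SE, adjusted p = 0.0309). COM 4 was lowest for both and COM 3 was the nearest to Control for Des. Cnn1 (-0.44, adjusted p = 0.0476) and Myl9 (-0.39, adjusted p = 0.032) were the other 2 calls, and Pln, phospholamban of the muscle calcium store, was among the largest falls of all genes, with 4.8, 7.11 and 9.98 FPKM in Control and 3.46, 4.15, 2.17 and 1.75 FPKM in COM (log2 difference -1.09 ± 0.28 SE, adjusted p = 0.0262). Without Control 3 the adjusted p of Pln was 0.094. The smooth muscle count was 1 without Control 3, 1 without COM 2, 4 without COM 3 and 2 without all 3. It was 2 under quantile normalisation, 1 under TPM and 6 with the length and GC trend removed.

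Enzymes for xenobiotics and steroids had 5 of 29 called lower, against 2.52% of all genes, and a median of -0.38. The count was 2 without Control 3, 4 without COM 2, 0 without COM 3 and 2 without all 3. Abcg2, an efflux pump of the apical membrane, had 46.8, 59.9 and 77.7 FPKM in Control and 42.4, 31.1, 29.8 and 31.4 FPKM in COM (log2 difference -0.83 ± 0.20 SE, adjusted p = 0.0224). Sult1a1, a phenol sulfotransferase, had 279, 315 and 458 FPKM in Control and 246, 242, 164 and 173 FPKM in COM (log2 difference -0.75 ± 0.20 SE, adjusted p = 0.035). The carboxylesterase Ces2c had 209, 323 and 501 FPKM in Control and 228, 179, 169 and 166 FPKM in COM (log2 difference -0.81 ± 0.23 SE, adjusted p = 0.0394). Control 3 was the highest library for all 3 and COM 1 the highest of the COM libraries. Without Control 3 the list's median was -0.08 and the adjusted p was 0.0822 for Abcg2, 0.124 for Sult1a1 and 0.142 for Ces2c. Markers of mature absorptive colonocytes had 1 of 16 called, against 7.98% of all genes, and 15 members below 0. The call was the brush border protocadherin Cdhr5, with 487.5, 504 and 658.5 FPKM in Control and 441, 409, 448 and 421 FPKM in COM (log2 difference -0.34 ± 0.10 SE, adjusted p = 0.0389). Without Control 3 its adjusted p was 0.125. The colonocyte list had 3 lower calls without Control 3, and 0 without COM 2 or without COM 3. Interferon-response genes had 1 of 20 called, against 7.98% of all genes, with a median of -0.32 that became -0.79 without COM 2. Without COM 2 the list had 4 lower calls, and without Control 3 or without COM 3 it had 0. COM 2 had a list mean of 5.60 on the log2(FPKM + 1) scale, against 3.77 to 4.10 in the other COM libraries and 4.26 to 4.69 in Control.

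Purine and histidine genes, which the series title names, are given by list, beside the 7.98% of all genes that were called. An unadjusted p under 0.05 was found for 3159 of all 12797 tested genes. None of 15 tested genes of purine synthesis and salvage was called by limma, 3 had an unadjusted p under 0.05, and their median was 0.09. The nearest to the threshold was Paics, a bifunctional enzyme of purine synthesis, with 47.3, 44.9 and 23.6 FPKM in Control and 51.6, 49.2, 57.4 and 62.7 FPKM in COM (log2 difference 0.56 ± 0.18 SE, adjusted p = 0.0687). Control 3 was far below the rest, and without it the log2 difference was 0.25. None of 10 purine breakdown genes was called by limma either, and 2 had an unadjusted p under 0.05. Their median was 0.09, with log2 differences from -0.24 ± 0.18 for Ada, adenosine deaminase, to 0.44 ± 0.20 for Gda, guanine deaminase. Xdh, xanthine dehydrogenase, which forms uric acid, had 33.03, 29.4 and 27.7 FPKM in Control and 31.9, 65.7, 34.4 and 29.5 FPKM in COM; the log2 difference of 0.34 ± 0.20 SE did not pass the threshold, and COM 2 was alone in being high.

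Genes that handle purines outside the cell had 3 calls among 19, 1 higher and 2 lower, against 7.98% of all genes, with 0 without Control 3 and 0 without COM 3. Entpd1 (CD39), which strips phosphates from extracellular ATP and is carried by vessels and leukocytes, had 4.91, 3.49 and 2 FPKM in Control and 5.87, 6.46, 6.78 and 7.26 FPKM in COM (log2 difference 0.82 ± 0.20 SE, adjusted p = 0.0222). Entpd8, an ectonucleotidase of the colonic epithelium, had 65.2, 79.7 and 75.2 FPKM in Control and 52.7, 44.96, 52.2 and 47.3 FPKM in COM (log2 difference -0.56 ± 0.15 SE, adjusted p = 0.0325). Panx1, a channel that releases ATP, had 16.96, 16.1 and 21.7 FPKM in Control and 13.8, 15.98, 14.3 and 12.3 FPKM in COM (log2 difference -0.35 ± 0.10 SE, adjusted p = 0.0493). The groups did not overlap for any of the 3, and none kept its call without Control 3, where the adjusted p values were 0.0784, 0.0744 and 0.182. Nt5e (CD73), which completes the path to adenosine, had 55.8, 73.2 and 6.91 FPKM in Control and 57.8, 44.3, 89.3 and 90.8 FPKM in COM, and Control 3 was alone in being low (log2 difference 1.09 ± 0.52 SE, adjusted p = 0.211).

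Of 10 tested histidine and histamine genes 1 was called, against 7.98% of all genes. This was Cndp2, a dipeptidase that releases histidine from dipeptides such as carnosine. It had 32.1, 39.7 and 40.7 FPKM in Control and 26.8, 29.7, 25.1 and 25.8 FPKM in COM (log2 difference -0.46 ± 0.10 SE, adjusted p = 0.0118), with no overlap, and the adjusted p was 0.0371 without Control 3 and 0.0392 without COM 3. The other 9 had differences between -0.42 for Aldh1b1 and 0.13 for Aoc1, the secreted diamine oxidase, and the list median was 0.00. The enzymes that break histidine down (Hal, Uroc1, Amdhd1 and Ftcd) were below 1 FPKM in every library of the 2 groups except COM 2, where Hal was at 1.9 and Uroc1 at 2.01, in the library with liver transcripts.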

How the data were processed

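Per the labels' protocols, whole colons were sequenced on the DNBSEQ platform. The authors deposited 1 table of FPKM for 18 libraries; the genome build mm10 comes from the submitters' processing notes. Which aligner, annotation and FPKM program were used was not given in the sources used here. Of 18349 gene IDs 18230 matched a RefSeq symbol (GRCm38.p6), and 119 did not. FPKM carry no read depth, so no counting interval is given; precision rests on 4 and 3 libraries. Values shared exactly by 2 of the 7 libraries made up at most 0.452% of genes, so no library was a copy of another.

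Genes that reached 1 FPKM in 3 or more of the 7 libraries were kept, log2(FPKM + 1) was taken, and limma 3.58.1 (R 4.3.3) with an intensity trend was fitted over all 18 libraries and 5 groups, with Benjamini-Hochberg adjustment. The pseudocount of 1 makes a log2 difference understate the change of scarce genes. The fit was tested on simulated data with known changes.

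Named were the 15 largest called, non-overlapping differences in each direction where the higher group averaged 5 FPKM or more, and up to 6 members of each list, called ones first. Genes named outside this rule (Per1, Per3, Ciart, Hlf, Saa1, Saa2, Cp, Alb, the complement genes, subunits beyond the list, and those called against ZJ316_KO) were chosen after their values were seen. The members and the lists were chosen with earlier results of these data known. The hepatocyte and complement lists, the 5 protein families, the ROR element, the length and GC correction (natural splines with 4 degrees of freedom) and the joint removal of 3 libraries were added after the data were seen. Some genes that entered the counts are not reported here.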

Additional observations from a re-analysis of the deposited data

Results flagged for a closer look

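In 5 of the 82 named genes checked, 1 of the 4 COM libraries lay far from the other 3 by Dixon's gap test; chance passes it in about 1 group in 20. The library with liver transcripts held 3 of these. Inmt had 21.1 FPKM in COM 2 against 3.18 to 4.87 in the others, and Nos2 had 30.12 against 7.98 to 9.9. The clock repressor Ciart was also high in COM 2, at 4.3 FPKM against 1.81 to 2.02. The efflux pump gene Abcg2 was at 42.4 FPKM in COM 1 against 29.81 to 31.36. Decorin (Dcn) was at 264.19 FPKM in COM 3, the library with squamous keratins, against 216.78 to 221.93. For Ciart, Inmt and Nos2 the call against Control was lost without COM 2, and for Dcn it was kept without COM 3.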

How the results depend on the processing

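Against the 1021 genes called between COM and Control (699 higher, 322 lower), the pseudocount of 0.1, the filter over all 18 libraries and no filter moved each count by less than 1.5 times. A filter of 5 FPKM gave 454 higher. Quantile normalization gave 436 higher, and rescaling to TPM 1146 higher and 188 lower. Only the libraries of the 2 groups compared gave 33 (31 higher, 2 lower), and 98 (74, 24) without Control 3, where fewer libraries estimate the spread. An absolute log2 difference of at least 1 left 94 (86, 8). With the length and GC trend removed there were 430 higher of 887; without Control 3 and COM 3 together 552 (347, 205); and without Control 3, COM 2 and COM 3 together 192 (120, 72). Leaving out 1 library at a time gave 429 to 2305 calls, 290 to 1520 higher and 119 to 785 lower: COM 3, COM 4 and Control 2 gave the fewest and Control 1 the most. The cause of these moves was not tested. Of the 30 genes with the largest differences, 16 remained called with each library left out. With only the libraries of the 2 groups compared 5 of the 30 were called, and 14 when Control 3 was also left out. Of 82 called genes checked by name, the call was lost for 5 without COM 1, 19 without COM 2, 30 without COM 3, 28 without COM 4, 2 without Control 1, 29 without Control 2 and 30 without Control 3.

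Against DSS (2 calls), 1 was called with no filter, 3 at 5 FPKM, 4 under quantile normalization, 14 from the 2 groups' libraries, 1 under the replicate block, 1 to 35 with a library left out and 20 without Control 3 and COM 3. Against ZJ316_WT (1 call), the counts were 0 with the pseudocount of 0.1, 2 with no filter, 0 from the 2 groups' libraries, 0 to 36 with a library left out and 14 without Control 3 and COM 3. Against ZJ316_KO (4 calls), they were 2 under quantile normalization, 1 from the 2 groups' libraries, 0 under the replicate block, 0 to 2 with a library left out, 1 without Control 3 and COM 3, and 0 at an absolute log2 difference of at least 1.

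The libraries share only a replicate number: deviations of same-numbered COM and Control libraries had correlations of -0.462, -0.364 and -0.535 across genes. Pairs with unlike numbers ranged from -0.475 (COM 4 with Control 3) to 0.496 (COM 1 with Control 3). With the replicate block 558 genes were called, 382 higher and 176 lower. FPKM hide the read depth, so how far depth limits scarce genes is unknown. None of the 82 called genes checked by name changed direction under any alternative run.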

Other observations

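Complement genes were a list added after the data were seen. Of 20 tested members 10 were called higher in COM, against 5.46% of all genes. Their list had a median log2 difference of 0.95, and C1qa, C1qb and C1qc also stand in the macrophage list. C3, the central component, had 17.8, 40.9 and 11.2 FPKM in the 3 Control libraries and 61.98, 106, 66.8 and 36.2 FPKM in the 4 COM libraries (log2 difference 1.59 ± 0.44 SE, adjusted p = 0.037). The 2 groups overlapped for it, with COM 4 below Control 2. C4b, of the classical and lectin pathways, had 9.99, 8.73 and 3.38 FPKM in Control and 13.8, 27.2, 20.8 and 18.02 FPKM in COM (log2 difference 1.39 ± 0.29 SE, adjusted p = 0.0115). Serping1, the C1 inhibitor, had 44.3, 55.8 and 31.3 FPKM in Control and 68.5, 105, 80.6 and 75.04 FPKM in COM (log2 difference 0.91 ± 0.19 SE, adjusted p = 0.0107). All 3 were highest in COM 2, the library with liver transcripts. The count was 5 without Control 3, 5 without COM 2, 5 without COM 3 and 1 without all 3, and the part of these libraries in the result was not tested.

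Heat and cold genes had 1 of 15 called, against 7.98% of all genes. The call was Rbm3, the cold-inducible RNA-binding protein, with 104, 82.9 and 76.5 FPKM in Control and 117, 137, 122 and 108 FPKM in COM (log2 difference 0.47 ± 0.12 SE, adjusted p = 0.0234). Proliferation genes had 0 of 20 called by limma, and 1 had an unadjusted p under 0.05, against 3159 of all 12797 tested genes.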
